A study of Homo sapiens with 47 samples.

Results

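The miR-106a, miR-20b and miR-363 cluster is a run of microRNA (miRNA) hairpins on the human X chromosome. Its members here were the 4 entries of the count table named for its mature products hsa-miR-106a-5p, hsa-miR-18b-5p, hsa-miR-20b-5p and hsa-miR-363-3p, out of 1006 entries in all, and every one of the 4 was found. They were followed by small RNA sequencing through 2 human prostate cancer cell lines: 22Rv1, which came from a subline of the CWR22R xenograft, and PC-3, which came from a bone metastasis. Cells of both lines, in RPMI medium with 10% serum, spent 24 h in hypoxia at 0% O2, at 0.2 or 0.5% O2, at 1 or 2% O2, or at 5% O2, and each level had its own normoxia control (95% air). That gave 12 hypoxia and 11 normoxia libraries of 22Rv1, and 12 hypoxia and 12 normoxia libraries of PC-3. Each combination of line, level and condition had 2 libraries, except that normoxia for the 0.2% level of 22Rv1 had 1 among those analysed here. The labels do not say that the duplicates were separate cultures, so the p-values measure the spread between these libraries, which may be technical. Each line stands for 1 tumour only, and a difference between them is a difference between these lines.

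A miRNA cluster is copied from DNA as a single long transcript, from which each hairpin is cut out and trimmed to a mature miRNA of 1 or both of its arms. The mature miRNA then represses messenger RNAs that pair with its seed, bases 2 to 8 counted from its 5′ end. The X-linked cluster is a paralogue of the miR-17-92a cluster on chromosome 13 and of the miR-106b-25 cluster on chromosome 7, which are best known as drivers of proliferation whose targets include CDKN1A, an inhibitor of the cell cycle. Among the targets described for miR-20b are HIF1A, the oxygen-regulated subunit of the hypoxia-inducible factor, and VEGFA, the main angiogenic growth factor.

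In the GRCh38 annotation the cluster spans 901 bases on the minus strand, chrX:134169378-134170278. It holds 6 hairpins in the order MIR106A, MIR18B, MIR20B, MIR19B2, MIR92A2 and MIR363, and all 6 lie in exonic sequence of 1 non-coding host transcript, AC002407.1 (chrX:134168911-134174089), which RefSeq calls MIR106AHG. The mature miR-106a-5p lies at chrX:134170244-134170266, miR-18b-5p at chrX:134170084-134170106, miR-20b-5p at chrX:134169850-134169872 and miR-363-3p at chrX:134169382-134169403. The mature sequences are shown beside those of their chromosome 13 paralogues because the similarity bears on which copy a read can be assigned to. They are RefSeq sequences of GRCh38.p14, 5′ to 3′, with the seed in capitals.
hsa-miR-106a-5p: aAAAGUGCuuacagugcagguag
hsa-miR-17-5p: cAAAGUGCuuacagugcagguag
hsa-miR-18b-5p: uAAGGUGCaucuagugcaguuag
hsa-miR-18a-5p: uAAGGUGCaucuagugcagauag
hsa-miR-20b-5p: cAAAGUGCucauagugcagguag
hsa-miR-20a-5p: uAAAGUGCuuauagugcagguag
hsa-miR-363-3p: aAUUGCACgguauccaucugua
hsa-miR-92a-3p: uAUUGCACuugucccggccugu

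Each member shares its seed with its paralogue. In a substitution the paralogue's base is written first, then the position from 1 at the 5′ end, then the member's base. miR-106a-5p differs from miR-17-5p by C1A alone and miR-18b-5p from miR-18a-5p by A20U alone. miR-20b-5p differs from miR-20a-5p by U1C and U10C, whereas miR-363-3p differs from miR-92a-3p at 12 positions. miR-92a-3p is made from MIR92A1 on chromosome 13 and also from MIR92A2 of the X cluster, so it is not a chromosome 13 product alone. The sources used here do not say how the authors assigned reads that match both copies. The levels of the first 3 members may therefore hold reads of their chromosome 13 paralogues or lack some of their own, miR-106a-5p most of all because a trimmed first base would remove its only difference. miR-363-3p is the member that such sharing touches least.

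Library totals ran from 960421 to 3181344 counts in 22Rv1 and from 1742290 to 4327382 counts in PC-3. Levels are given as counts per 1000000 of the library's total after TMM scaling over both lines (CPM), and tests were made with edgeR's quasi-likelihood test on the counts, with p-values adjusted by Benjamini-Hochberg over all miRNAs tested and called below 0.05. Of the 23 libraries of 22Rv1, 3 stood apart on the first principal component of the line: replicate 1 of hypoxia at 5%, replicate 1 of its normoxia control and replicate 1 of hypoxia at 0.5%. In PC-3, the replicate 1 libraries of the 5% level, hypoxia and normoxia, held 1396 and 1470.5 CPM of 4 stromal marker miRNAs, against PC-3 medians of 25.5 CPM in hypoxia and 20.8 CPM in normoxia. Over all libraries the 4 stromal markers summed to 53.2 to 528 CPM in 22Rv1 hypoxia and 114 to 257 CPM in 22Rv1 normoxia. Of 6 blood marker miRNAs 5 were in the table, with sums of 805 to 2649 CPM in 22Rv1 hypoxia and 1254 to 2427 CPM in 22Rv1 normoxia, against 224 to 357 CPM in PC-3 hypoxia and 290.0 to 400.1 CPM in PC-3 normoxia. Both marker lists thus had higher medians in 22Rv1, as the members did, and their part in the line differences was not tested. The identity of the lines was not checked against defining markers, which are messenger RNAs.

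All 4 members were higher in 22Rv1 than in PC-3, with no overlap between the lines in any member, but by very different amounts. How many of all miRNAs were likewise free of overlap was not counted. By edgeR, 86.0% of those tested were called between the lines in normoxia, which is another measure. The separation is therefore not taken to mark out the cluster. miR-106a-5p was a little over 3 times higher, miR-18b-5p about 9 to 13 times, miR-20b-5p about 38 to 42 times, and miR-363-3p was near the detection limit in PC-3 while it was the most abundant member in 22Rv1. Because a library pools many cells, a lower level in each cell and expression in fewer cells cannot be told apart.

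**Figure D1:**
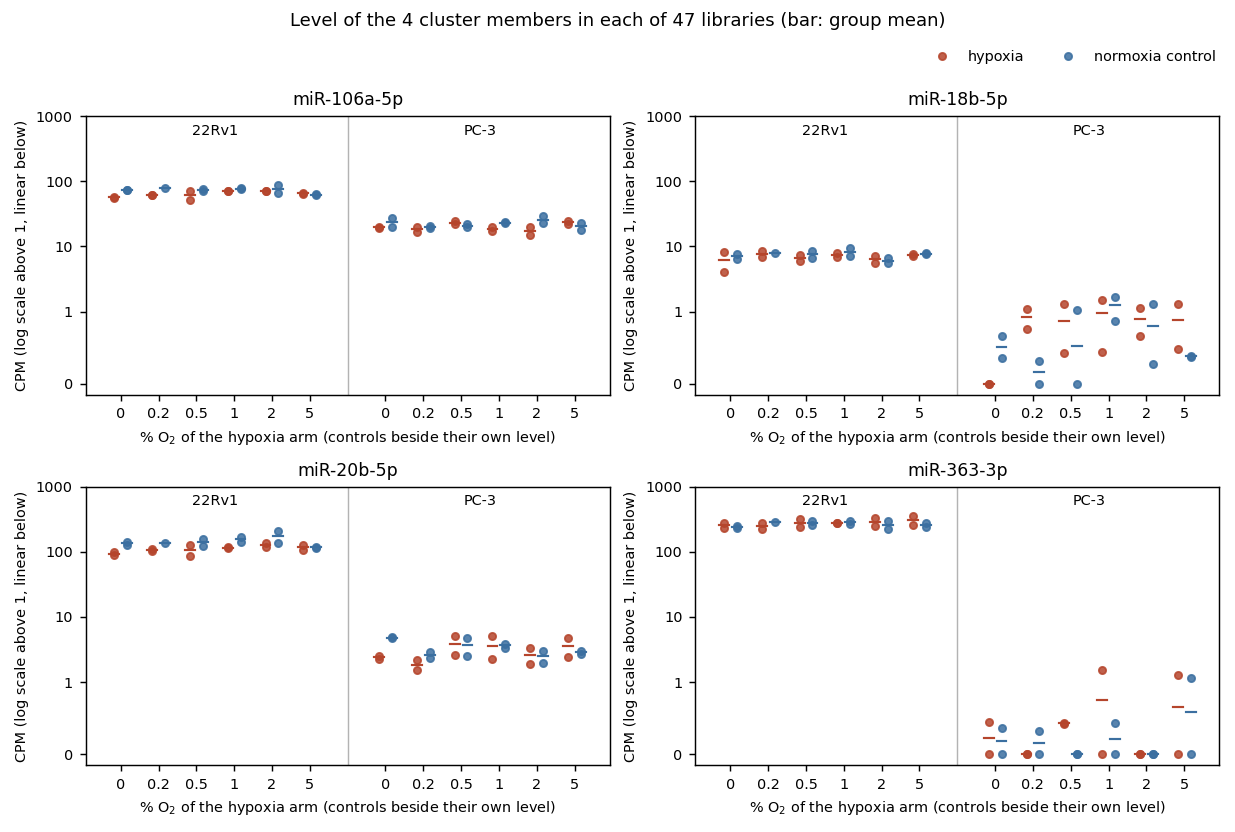
Level of each member in every library, in CPM on a log axis that is linear near 0, with hypoxia left of normoxia within each line and a bar at the group mean. The 22Rv1 libraries lie above all PC-3 libraries for each member, and most PC-3 libraries have miR-363-3p at 0.

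hsa-miR-363-3p, from the last hairpin of the cluster, had 225, 274 and 359.6 CPM as its lowest, median and highest value in the 22Rv1 hypoxia libraries and 223.3, 269.6 and 299 CPM in the 22Rv1 normoxia libraries. In PC-3 it was at 0 counts in 7 of 12 hypoxia and 8 of 12 normoxia libraries, and its highest values were 1.51 CPM in hypoxia and 1.18 CPM in normoxia. A count of 0 in a PC-3 library allows up to 3 counts, or 0.828 to 1.99 CPM depending on depth. All PC-3 libraries together held 9 counts of miR-363-3p in hypoxia and 6 in normoxia. The replicate 1 libraries of the 5% level, where the stromal markers were high, held 3 of these 9 and 3 of these 6. The part of other cells in these few reads was not tested. Set against the summed PC-3 counts with the same scaling, miR-363-3p was 789 times higher in 22Rv1 in hypoxia (95% interval 415 to 1725) and 1389 times higher in normoxia (638 to 3786). Without replicate 1 of normoxia at 5% in PC-3, the normoxia value rests on 3 PC-3 counts and was 2552 (873 to 12376), and without replicate 1 of hypoxia at 5% the hypoxia value was 1080 (496 to 2943), both left out after the data were seen. These are exact conditional intervals that cover counting error only.

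hsa-miR-20b-5p, which shares its seed with miR-17-5p and miR-20a-5p, averaged 111 ± 16.2 CPM in 22Rv1 hypoxia (SD, n = 12) and 142.9 ± 26.6 CPM in 22Rv1 normoxia (n = 11). In PC-3 it averaged 2.99 ± 1.27 CPM in hypoxia and 3.35 ± 0.999 CPM in normoxia (n = 12 each), never above 5.14 CPM. Summed over libraries it was 37.7 times higher in 22Rv1 in hypoxia (95% interval 30.1 to 47.8, counting error only) and 42.4 times higher in normoxia (34.9 to 51.9). In the fit, the lines differed by a log2 fold change of 5.26 (SE 0.13) in hypoxia and 5.40 (SE 0.13) in normoxia, given as a description because the miRNA passed the filter on low counts only through its 22Rv1 libraries. The lowest 22Rv1 library, at 85.3 CPM, thus stood far above the highest PC-3 library.

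hsa-miR-106a-5p, from the first hairpin, was the only member whose entry had a substantial level in both lines. It averaged 64.3 ± 6.65 CPM in 22Rv1 hypoxia and 73.5 ± 7.78 CPM in 22Rv1 normoxia, against 20.1 ± 2.93 CPM in PC-3 hypoxia and 22.3 ± 3.30 CPM in PC-3 normoxia (SD). Its log2 fold change between the lines was 1.68 (SE 0.082, adjusted p = 1.1e-20) in hypoxia and 1.72 (SE 0.081, adjusted p = 3.3e-21) in normoxia by edgeR's quasi-likelihood test. The lowest 22Rv1 library had 51.2 CPM and the highest PC-3 library 28.99 CPM.

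hsa-miR-18b-5p, the paralogue of miR-18a-5p, was the scarcest member in 22Rv1, where it averaged 6.94 ± 1.22 CPM in hypoxia and 7.42 ± 1.12 CPM in normoxia (SD). In PC-3 it averaged 0.760 ± 0.510 CPM in hypoxia and 0.611 ± 0.528 CPM in normoxia, and 2 of 12 libraries in each condition were at 0. Summed PC-3 counts were 20 in hypoxia and 18 in normoxia, which makes miR-18b-5p 9.25 times higher in 22Rv1 in hypoxia (95% interval 5.85 to 15.4, counting error only) and 12.9 times higher in normoxia (7.996 to 22.2). At this depth the level of miR-18b-5p in PC-3 rests on a few reads per library.

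The line contrast was wide throughout the table. Of the 613 miRNAs tested between the lines in normoxia, 86.0% were called, 46.3% higher and 39.6% lower in 22Rv1. In hypoxia 87.6% were called, 48.5% higher and 39.2% lower in 22Rv1. A call between the lines therefore sets no miRNA apart by itself. miR-18b-5p, miR-20b-5p and miR-363-3p passed the filter on low counts only through their 22Rv1 libraries, so no count of calls over the members is given. Scaling by library size alone in place of TMM moved the median over all tested miRNAs by 0.45 (log2) in normoxia and 0.44 in hypoxia, and no member changed direction under it. In normoxia the log2 fold change of miR-106a-5p was 1.81 without both PC-3 libraries with high stromal markers and 1.79 without the 3 libraries of 22Rv1 that stood apart, and that of miR-20b-5p was 5.44 and 5.47 in the same order. With TMM scaling, the median over all tested miRNAs was 0.19 in hypoxia and 0.15 in normoxia.

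The make-up of the cluster, as counted in the 4 entries, differed between the lines as well. In 22Rv1 the 4 members together reached 459 ± 58.4 CPM in hypoxia and 489 ± 35.7 CPM in normoxia (SD), of which miR-363-3p made up 60.1 ± 2.62% in hypoxia and 54.4 ± 4.81% in normoxia. miR-20b-5p made up 24.3 ± 1.65% in hypoxia and 29.1 ± 4.04% in normoxia of the 22Rv1 sum. The order in 22Rv1 was miR-363-3p, miR-20b-5p, miR-106a-5p and miR-18b-5p in both conditions, and no 2 neighbours in it overlapped within a condition. In PC-3 the sum was 24.2 ± 3.87 CPM in hypoxia and 26.5 ± 3.70 CPM in normoxia, and miR-106a-5p made up 83.4 ± 6.43% in hypoxia and 84.3 ± 4.13% in normoxia. In PC-3, miR-20b-5p followed miR-106a-5p without overlap, while the values of miR-18b-5p and miR-363-3p overlapped near the detection limit. The PC-3 entry of miR-106a-5p amounted to 1.04% of miR-17-5p in hypoxia and 1.07% in normoxia. How far it holds reads of miR-17-5p, and so alters this make-up, was not tested.

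**Figure D2:**
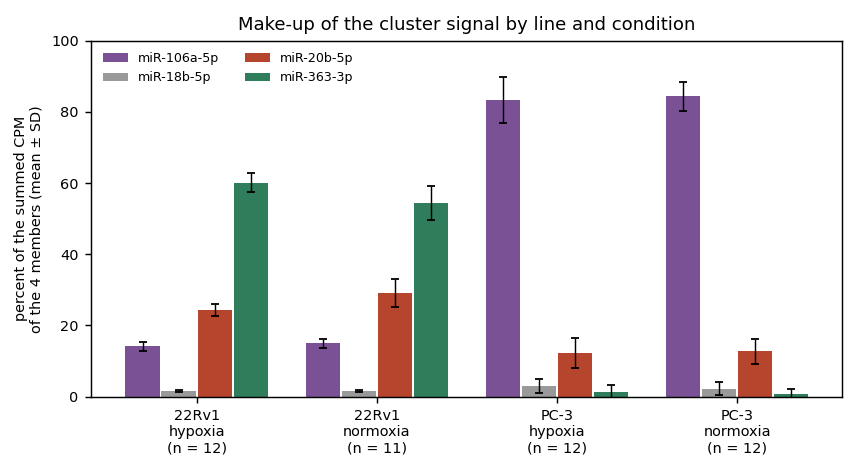
Mean percent of the members' summed CPM taken by each member in the 4 combinations of line and condition. In 22Rv1, miR-363-3p takes 60.1% in hypoxia and 54.4% in normoxia, while in PC-3 miR-106a-5p takes 83.4% in hypoxia and 84.3% in normoxia.

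The other arms of the X hairpins were counted almost only in 22Rv1, at trace level. Of 6 such arms in the list, 4 were in the table, and none passed the filter on low counts. miR-20b-3p had 27 summed counts in the 22Rv1 hypoxia libraries and 28 in the 22Rv1 normoxia libraries, and miR-363-5p had 17 in hypoxia and 36 in normoxia. miR-92a-2-5p, the arm of MIR92A2 that tells it from MIR92A1 on chromosome 13, had 12 counts in hypoxia and 17 in normoxia. These 3 arms were at 0 in all 24 PC-3 libraries. miR-18b-3p had 9 counts in 22Rv1 hypoxia and 15 in 22Rv1 normoxia, against 0 in PC-3 hypoxia and 1 in PC-3 normoxia. These arms were not tested.

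Each member was next set against its chromosome 13 paralogue within the same library, which removes the library's scaling. In 22Rv1 normoxia miR-20b-5p amounted to 7.25 ± 0.663% of miR-20a-5p, against 0.163 ± 0.045% in PC-3 normoxia (SD). miR-106a-5p amounted to 4.91 ± 0.367% of miR-17-5p in 22Rv1 and to 1.07 ± 0.155% in PC-3. miR-18b-5p amounted to 2.74 ± 0.514% of miR-18a-5p in 22Rv1 and to 0.352 ± 0.316% in PC-3. miR-363-3p amounted to 1.498 ± 0.181% of miR-92a-3p in 22Rv1 and to 0.000617% in PC-3. In the first 3 of these pairs the X copy was thus the minor partner in both lines, and by a larger margin in PC-3. miR-363-3p was also far scarcer than miR-92a-3p, but part of miR-92a-3p can itself come from the X cluster.

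The log2 ratio of member to paralogue was higher in 22Rv1 by 2.22 for miR-106a-5p (95% interval 2.06 to 2.37), 2.57 for miR-18b-5p (1.91 to 3.19), 5.51 for miR-20b-5p (5.25 to 5.76) and 9.81 for miR-363-3p (9.26 to 10.3). A count of 1 was added for the ratios of miR-18b-5p and miR-363-3p, which understates them. The difference of miR-106a-5p had p = 4.29e-05 in a two-sided exact permutation test that exchanged lines within O2 level, and 0.000129 after adjustment over 12 such tests. That is the smallest p its 23328 arrangements allow, and how many other pairs of miRNAs would reach it was not counted. For miR-18b-5p, miR-20b-5p and miR-363-3p the differences are descriptions, since these members passed the filter on low counts only through their 22Rv1 libraries. The 4 differences span a wide range, from that of miR-106a-5p to that of miR-363-3p, within 1 cluster. How far reads of miR-17-5p that lost or changed their first base add to the miR-106a-5p entry in each line was not tested.

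**Figure D3:**
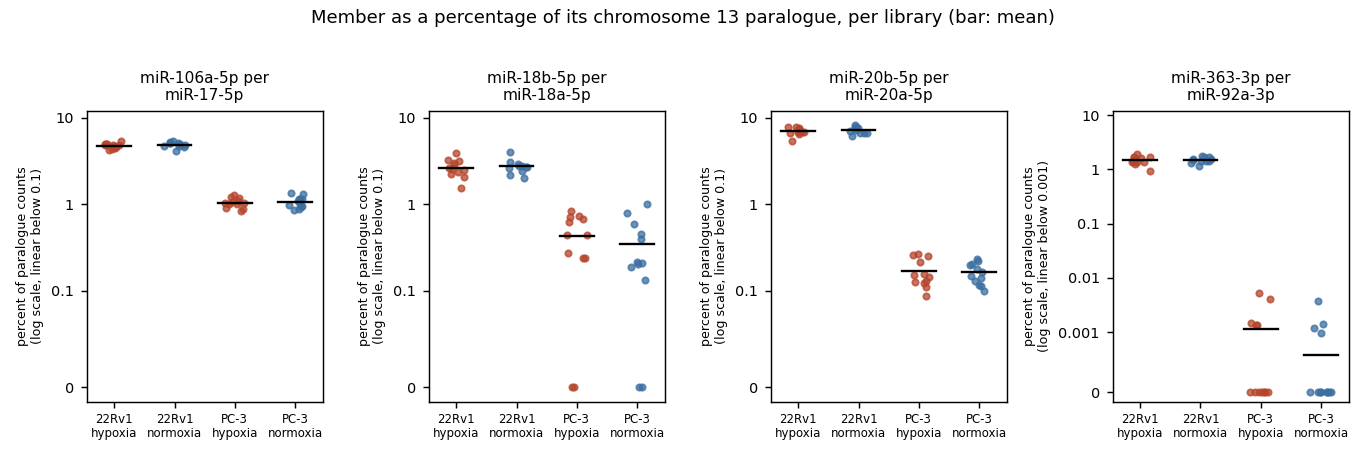
Each member's count as a percent of its chromosome 13 paralogue's count in the same library, on a log axis, with hypoxia left of normoxia within each line. miR-92a-3p can also come from the X cluster. 22Rv1 lies above PC-3 for all 4 pairs, and hypoxia and normoxia overlap in each.

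Not all of the paralogues were higher in 22Rv1. miR-17-5p was lower in 22Rv1 in normoxia by edgeR (log2 fold change −0.48, SE 0.058, adjusted p = 1.3e-09), miR-20a-5p was not called (−0.060, SE 0.062, adjusted p = 0.365) and miR-18a-5p was higher (0.59, SE 0.071, adjusted p = 1.4e-09). Of the 12 tested arms of the chromosome 13 cluster, 2 were called higher and 9 lower in 22Rv1, with a median of −0.58 against 0.15 over all tested miRNAs. Scaling by library size alone left 3 higher calls and 4 lower ones, with a median of −0.12 against 0.60, and miR-17-5p (−0.014, adjusted p = 0.888) and miR-19b-3p (−0.0037, adjusted p = 0.970) were not called while miR-20a-5p was called higher (0.39, adjusted p = 2.6e-06). In that list, miR-19b-3p (−0.46, SE 0.076) and miR-92a-3p (−0.81, SE 0.081) can also come from the X hairpins MIR19B2 and MIR92A2. With TMM scaling both were lower in 22Rv1, the line with the higher X-specific arms. All 6 tested arms of the chromosome 7 cluster were called higher in 22Rv1, with a median of 1.01 against 0.15 over all tested miRNAs, of which 46.3% were called higher. With library size alone these medians were 1.46 and 0.60, and the 6 arms were again called higher.

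Summing each member with its paralogue gives a level that does not depend on how reads were split between the copies. In normoxia the sum of miR-18b-5p and miR-18a-5p was higher in 22Rv1 (0.67, adjusted p = 4.7e-11 by edgeR's quasi-likelihood test). The sum of miR-106a-5p and miR-17-5p was lower (−0.38, adjusted p = 2.5e-07), but it was 0.040 with library size alone (adjusted p = 0.68). The sum of miR-20b-5p and miR-20a-5p was not called (0.086, adjusted p = 0.179) but was with library size alone (0.49, adjusted p = 4.9e-08). The higher levels of miR-106a-5p, miR-18b-5p and miR-20b-5p in 22Rv1 were thus small beside the paralogues they were added to.

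By seed, the members were also a small share of what the table held. Of all CPM with the seed AAAGUGC, held by 6 entries in the table, miR-106a-5p and miR-20b-5p together made up 1.71 ± 0.111% in 22Rv1 hypoxia and 1.85 ± 0.162% in 22Rv1 normoxia, and 0.303 ± 0.034% in PC-3 hypoxia and 0.309 ± 0.039% in PC-3 normoxia. The largest entry with that seed was miR-93-5p of chromosome 7, with 7418 CPM in 22Rv1 and 3673 CPM in PC-3 in normoxia. miR-18b-5p made up 2.67% of the AAGGUGC seed in 22Rv1 normoxia and 0.349% in PC-3 normoxia. miR-363-3p made up 0.422% of the AUUGCAC seed in 22Rv1 normoxia and 0.000351% in PC-3 normoxia.

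In hypoxia, miR-20b-5p fell in 22Rv1, and the other 3 members did not pass in the main fit, which leaves out the replicate number. With the replicate number as a block, miR-106a-5p passed as well. That fit called 164 of all 552 tested miRNAs, against 75 in the main fit. Averaged over the 6 O2 levels, the log2 fold change of miR-20b-5p was −0.37 (SE 0.088, adjusted p = 0.0068), a level 0.776 times that of normoxia. In the main fit edgeR called 13.6% of the 552 miRNAs tested for this effect, 7.61% higher and 5.98% lower. The 1 call among 4 members in that fit is thus not far from the background. The mean effect was called with every library of 22Rv1 left out in turn (−0.42 to −0.30) and without the 3 libraries that stood apart (−0.35, adjusted p = 0.0158).

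At 0% O2 miR-20b-5p had 97.8 and 89.0 CPM in hypoxia, against 143.2 and 127 CPM in normoxia. At 0.2% it had 102 and 109.6 CPM in hypoxia, against 136 CPM in the 1 control. At 0.5% it had 85.3 and 128 CPM in hypoxia, against 155 and 124 CPM in normoxia. Both lowest levels were thus separated from their controls, while at 0.5% the groups overlapped and the low hypoxia library was 1 of those that stood apart. At 1% it had 112 and 118 CPM in hypoxia, against 142.2 and 168 CPM in normoxia. At 2% it had 138 and 119.7 CPM in hypoxia, against 136 and 208 CPM in normoxia. At 5% it had 129 and 108 CPM in hypoxia, against 115 and 118 CPM in normoxia. The 1% level was separated, the 2% and 5% levels overlapped, and the highest control, at 208 CPM, was at 2%. With at most 2 libraries a group such separation arises easily, and how many of all miRNAs shared it was not counted. Hypoxia was lower in 8 of 11 pairs of the same replicate number and in the mean CPM of 5 of 6 levels.

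miR-106a-5p had a mean log2 fold change of −0.21 in 22Rv1 (SE 0.078, adjusted p = 0.0738 by edgeR) and did not pass. With the replicate number as a block it passed (−0.21, adjusted p = 0.0295), as it did with a filter at 20 CPM (−0.22, adjusted p = 0.0481). It also passed without replicate 1 of normoxia at 2% (−0.26, adjusted p = 0.0317) and without replicate 2 of hypoxia at 0.5% (−0.24, adjusted p = 0.0462), whereas without the 3 libraries that stood apart it was −0.20 (adjusted p = 0.111). At 0% it had 58.1 and 56.3 CPM in hypoxia, against 74.8 and 73.8 CPM in normoxia, and at 5% it had 66.3 and 64.3 CPM in hypoxia, against 60.8 and 63.6 CPM in normoxia. In CPM the groups were thus separated in opposite directions at the lowest and the highest O2 level, although the fold change fitted within 22Rv1, with TMM scaling over that line alone, was −0.020 at 5%. How many of all miRNAs were likewise separated at these levels was not counted. The mean CPM was lower in hypoxia at 5 of 6 levels.

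miR-363-3p had a mean log2 fold change of 0.035 (SE 0.074, adjusted p = 0.845), which turned to −0.032 with library size alone. Its hypoxia range of 225 to 359.6 CPM covered its whole normoxia range except the lowest library. miR-18b-5p had −0.11 (SE 0.15, adjusted p = 0.737), with the widest error of the 4 at its low counts.

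**Figure D4:**
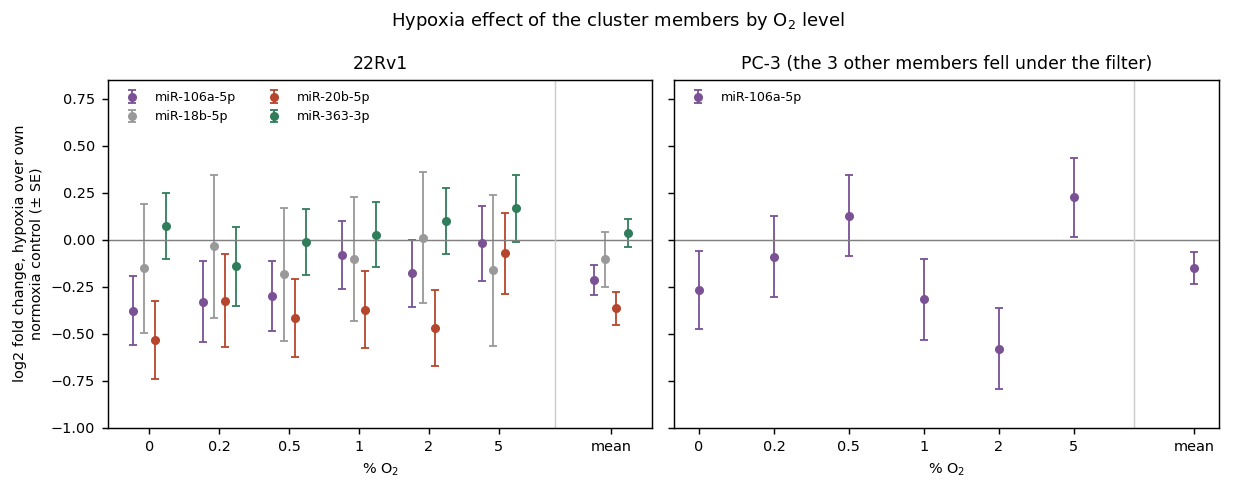
Log2 fold change of hypoxia over normoxia at each O2 level for the members that passed the filter in each line, with bars of 1 standard error, ordered from 0 to 5% O2. In 22Rv1, miR-20b-5p lies below 0 at every level, from −0.53 at 0% to −0.073 at 5%, and no single level is called. These values are fitted within each line. At 5% the mean CPM of miR-20b-5p in 22Rv1, scaled over both lines, was higher in hypoxia.

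No level on its own gave a call for a member. In 22Rv1, 0 of 24 values were called by edgeR, with 2 at an unadjusted p below 0.05, and DESeq2 called 0 of 23. Of all miRNAs tested in 22Rv1, 4.71% were called at 0%, 0.906% at 0.2%, 3.08% at 0.5%, 0.725% at 1%, 0.362% at 2% and 0.00% at 5%. The fold change of miR-20b-5p was −0.53 at 0%, −0.33 at 0.2%, −0.42 at 0.5%, −0.37 at 1%, −0.47 at 2% and −0.073 at 5% (SE 0.20 to 0.25), and the values at 0% and 2% were those with an unadjusted p below 0.05. That of miR-106a-5p was −0.38, −0.33, −0.30, −0.081, −0.18 and −0.020 in the same order of levels. The trend over O2 was not called for any member (0 of 4 by edgeR, 0 by DESeq2 and 0 at an unadjusted p below 0.05), and 0.181% of all tested miRNAs were called. The trend, per step toward lower O2, was −0.070 for miR-106a-5p (adjusted p = 0.795) and −0.055 for miR-20b-5p (adjusted p = 0.856) by edgeR.

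Because the members come from 1 transcript, they were also compared with each other within each 22Rv1 library, in ratios added after the data were seen. Relative to miR-363-3p, miR-20b-5p was lower in hypoxia, with a difference in log2 ratio of −0.39 (95% interval −0.61 to −0.18, adjusted p = 0.0075 over 6 ratios, two-sided exact permutation test within O2 level). Relative to miR-20b-5p, miR-106a-5p was higher in hypoxia by 0.15 (0.050 to 0.25, adjusted p = 0.0150, same permutation test). Both held with every library left out in turn. The ratio of miR-106a-5p to miR-363-3p was also lower in hypoxia, with a difference of −0.25 (−0.44 to −0.059, adjusted p = 0.0274, same permutation test). It did not pass by that permutation test without replicate 1 of hypoxia at 5% (adjusted p = 0.0653), replicate 1 of hypoxia at 2% (0.122), replicate 2 of normoxia at 5% (0.0598) or replicate 2 of normoxia at 2% (0.102). The ratios with miR-18b-5p did not pass. This permutation test left out the pairing by replicate number, and no paired version was run. All of these ratios rest on the same counts as the fold changes above, so they restate them within a library and are no independent support.

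In PC-3 only miR-106a-5p passed the filter on low counts. Its mean log2 fold change was −0.15 (SE 0.087, adjusted p = 0.287 by edgeR's quasi-likelihood test), and it was lower in hypoxia in 7 of 12 pairs, where 11.0% of 463 tested miRNAs were called, 5.83% higher and 5.18% lower. At 2% O2 it had 15.1 and 19.999 CPM in hypoxia, against 28.99 and 22.5 CPM in normoxia, and at 5% it had 24.7 and 22.5 CPM in hypoxia, against 22.7 and 17.8 CPM in normoxia. The 2% level gave the only unadjusted p below 0.05 (−0.58, SE 0.22) and 0 of 6 levels were called by edgeR or by DESeq2. Of all miRNAs tested in PC-3, 2.81% were called at 0%, 1.51% at 0.2%, 0.864% at 0.5%, 0.648% at 1%, 0.648% at 2% and 0.00% at 5%, and 0.216% were called for the trend over O2, which for miR-106a-5p was −0.016 and not called. With no filter, miR-20b-5p was −0.20 (SE 0.24) and miR-18b-5p 0.12 (SE 0.33) in PC-3. For miR-20b-5p, with a median of 5 counts per PC-3 library in hypoxia and 9 in normoxia, both 0 and the 22Rv1 value of −0.37 lie within 1 standard error of the PC-3 value.

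The hypoxia effect could be compared between the lines by a test for miR-106a-5p alone, the member whose entry passed the filter on low counts in both. How far that entry holds reads of its paralogue in each line was not tested, so the difference below is that of the entry. The difference of effects of miR-106a-5p, 22Rv1 minus PC-3, was −0.044 (SE 0.12) and was not called by edgeR, where 2.94% of 613 tested miRNAs were. For miR-20b-5p (−0.14, SE 0.23) and miR-18b-5p (−0.21, SE 0.59) the differences are descriptions, since both entered the fit through their 22Rv1 libraries and rest on few PC-3 counts. For miR-363-3p no difference is given, since PC-3 had almost no counts. The errors are large beside the effects, so neither a shared nor a separate response is shown.

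The chromosome 13 paralogues of miR-20b-5p and miR-106a-5p gave hypoxia effects of the same sign as theirs. miR-20a-5p, the paralogue of miR-20b-5p, fell in 22Rv1 (−0.32, SE 0.067, adjusted p = 0.0025) and in PC-3 (−0.23, SE 0.042, adjusted p = 3.9e-04). miR-17-5p did not pass in 22Rv1 (−0.17, SE 0.066, adjusted p = 0.106) or in PC-3 (−0.11, SE 0.037, adjusted p = 0.0514), but passed in both with the replicate number as a block (adjusted p = 0.0288 in 22Rv1 and 0.0117 in PC-3, all by edgeR). miR-92a-3p, whose seed miR-363-3p shares, was 0.078 (SE 0.097) in 22Rv1 and −0.022 (SE 0.040) in PC-3. The sum of miR-20b-5p and miR-20a-5p was lower in hypoxia in 22Rv1 (−0.33, adjusted p = 0.0020 by edgeR) and in PC-3 (−0.23, adjusted p = 4.1e-04), where it is almost all miR-20a-5p. The sum of miR-106a-5p and miR-17-5p was not called in 22Rv1 (−0.18, adjusted p = 0.0835) and was called lower in PC-3 (−0.11, adjusted p = 0.0496 by edgeR), where it is almost all miR-17-5p.

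**Figure D5:**
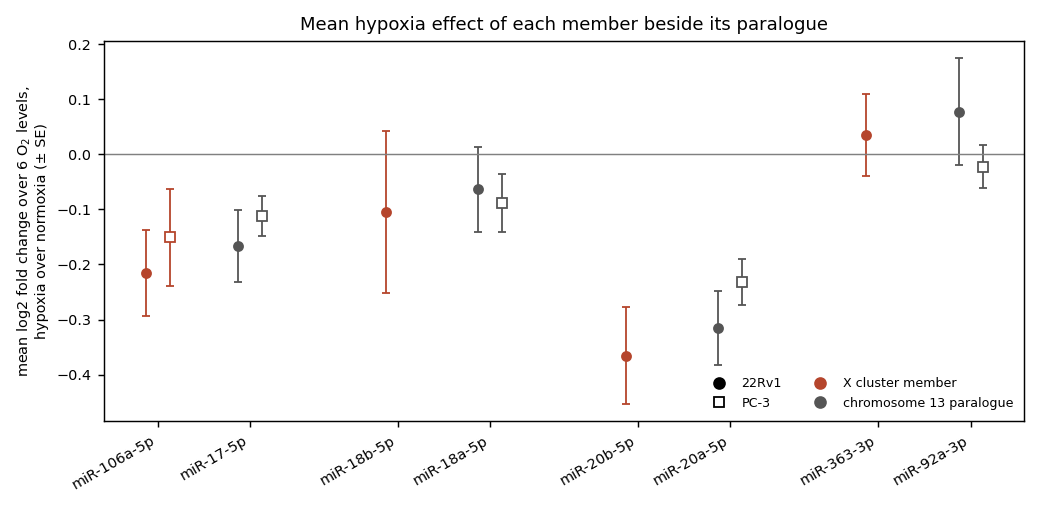
Mean hypoxia effect, as a log2 fold change over all O2 levels with bars of 1 standard error, of each member and its chromosome 13 paralogue in 22Rv1 and in PC-3. miR-92a-3p can also come from the X cluster. miR-20b-5p and miR-20a-5p lie near each other at −0.37 and −0.32 in 22Rv1, and miR-363-3p and miR-92a-3p lie near 0.

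The ratio of each member to its paralogue gave no call for hypoxia in the permutation test, which left out the pairing by replicate number. In 22Rv1 the log2 ratio changed by −0.045 for miR-20b-5p (95% interval −0.19 to 0.086, adjusted p = 0.755), −0.047 for miR-106a-5p (−0.14 to 0.055, adjusted p = 0.565), −0.067 for miR-18b-5p (−0.30 to 0.16, adjusted p = 0.761) and −0.034 for miR-363-3p (−0.23 to 0.16, adjusted p = 0.803), all by the exact permutation test. In PC-3 the intervals were wider, from −0.36 to 0.41 for miR-20b-5p and from −0.21 to 0.15 for miR-106a-5p. The intervals bound any difference between copy and paralogue in 22Rv1 most tightly for miR-106a-5p. They do not show that the copies respond alike.

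Other arms of the related clusters gave calls in both directions in hypoxia, where 13.6% of all tested miRNAs were called in 22Rv1 and 11.0% in PC-3. Of the chromosome 13 list, 2 of 11 tested arms rose in 22Rv1, miR-19a-3p (0.38, adjusted p = 0.0102) and miR-19b-3p (0.28, adjusted p = 0.0365), and 2 fell, miR-20a-5p and miR-92a-1-5p, while in PC-3 0 of 12 rose and the same 2 fell, all by edgeR's quasi-likelihood test. The median was −0.081 in 22Rv1 and −0.092 in PC-3, against 0.011 and −0.0044 over all tested miRNAs. With library size alone 0 of 11 rose and 1, miR-20a-5p, fell in 22Rv1, while 5 of 12 fell in PC-3. Of the chromosome 7 list, 1 of 6 arms fell in each line, miR-25-5p, with −0.50 in 22Rv1 and −0.42 in PC-3. With library size alone 1 of 6 fell in 22Rv1 and 2 of 6 in PC-3, where miR-93-5p was added (−0.13, adjusted p = 0.0325 by edgeR). Both arms of miR-210, the miRNA best known as a target of the hypoxia-inducible factor, rose in both lines, miR-210-3p by 1.01 in 22Rv1 and 0.70 in PC-3. The fall of miR-20b-5p was thus smaller than the rise of miR-210-3p in the same libraries.

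The normoxia controls of the 6 levels gave no call among themselves. Of 552 miRNAs tested in 22Rv1 and 463 in PC-3, 0.00% differed between control sets in either line by edgeR, with 3 miRNAs in 22Rv1 and 13 in PC-3 at an unadjusted p below 0.05. The adjusted p of the members was 0.996 in 22Rv1, and that of miR-106a-5p was 1.00 in PC-3.

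By closeness of centred log2 level over the 24 group means, in which the lines' difference weighs most, the miRNAs most like miR-20b-5p were miR-483-3p, miR-452-5p and miR-3180-5p, at root mean square differences of 0.285, 0.324 and 0.332. Those most like miR-363-3p were miR-224-5p at 0.272 and miR-3180-3p and miR-3180, both at 0.458. The entries miR-3180-3p and miR-3180 also had the same log2 line difference of 7.15, and whether they are separate signals was not tested. Those most like miR-106a-5p were miR-3613-5p at 0.152, miR-335-3p at 0.153 and miR-340-5p at 0.177. For miR-18b-5p they were miR-212-3p at 0.321, miR-486-5p at 0.334 and miR-3187-3p at 0.337. Candidates averaged at least 20 CPM in normoxia of the line with the higher member levels, so miRNAs scarce in that line could not be listed. The 24 points share their libraries and only 2 lines, so such likeness is a description of these samples.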

How the data were processed

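Small RNA of 22Rv1 and PC-3 cells was extracted with a miRNeasy kit and sequenced from gel-selected TruSeq libraries, per the labels' protocols. The authors deposited raw counts per miRNA for the 47 libraries, 23 of 22Rv1 and 24 of PC-3. The submitters' processing notes name hg19 and FastQC, while the aligner is not given in the sources used here, nor is the rule for reads that match several miRNAs. The authors also deposited CPM values scaled by TMM, each library's values being its counts times 1 constant, which served as an alternative scaling. Coordinates were therefore read from GRCh38 only, and sequences were matched by name for 868 of 1006 entries. The members and the lists of related miRNAs were chosen with earlier results of these data known.

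Counts were tested with edgeR 4.0.16 (R 4.3.3) by robust quasi-likelihood with TMM scaling and 1 mean per line, level and condition, on entries that reached 5 CPM in 2 or more libraries of the fit. Lines were compared over all libraries and hypoxia within each line. Ratios of counts were tested by exact permutation within O2 level in Python 3.11.15 with scipy 1.17.1, and their intervals come from inverting that test. The scripts were tested on simulated data. Named were the 4 members, the fixed lists and, for each member, the 3 miRNAs closest in centred log2(CPM + 1). Candidates for these 3 averaged at least 20 CPM in normoxia of the line with the higher member levels. miRNAs below that level there, even if high in the other line, could not be listed.

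Duplicates of a level share replicate numbers in the labels. Across hypoxia and its control, the deviations of same-numbered libraries correlated above 0.1 in 11 of 11 pairs of groups (0.113 to 0.397 in 22Rv1, 0.301 to 0.665 in PC-3). The numbers were therefore taken to pair the samples. The main fits and the permutation tests were made without this pairing, and fits with the replicate number as a block are given where they change a call. No paired version of the permutation tests or of the summed pairs was run, so their hypoxia results leave the pairing out. Other alternatives were library size alone, the authors' deposited scaling, DESeq2 size factors, the DESeq2 1.42.0 test, a filter at 20 CPM or none, 1 fit over both lines, and each library left out in turn. Leaving out the libraries that stood apart, or both PC-3 libraries with high stromal markers, and the ratios between members were chosen after seeing the data.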

Additional observations from a re-analysis of the deposited data

How the results depend on the processing

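The fall of miR-20b-5p in 22Rv1 was called in all 9 other settings tried (−0.43 to −0.35) and without each of the 23 libraries, while miR-106a-5p passed with a filter at 20 CPM (−0.219) and with the replicate block (−0.215) and lay between −0.255 and −0.169 with a library left out. Library size alone turned miR-363-3p to −0.0318, the sum of miR-106a-5p and miR-17-5p between the lines to 0.0398 and that of miR-20b-5p and miR-20a-5p to 0.493. Mean-effect calls over all miRNAs in 22Rv1 numbered 75, and 46 with library size alone and 164 with the replicate block. In PC-3 they numbered 51, and 109 with the replicate block and 29 with 1 fit over both lines. Calls for the line difference numbered 18, and 7 with library size alone, 11 at 20 CPM, 61 with the replicate block, 9 without the libraries that stood apart and 9 to 37 with 1 library left out. The line difference of miR-106a-5p was 0.0226 with no filter and −0.114 to 0.00531 with a library left out. Member to paralogue log2 ratios in hypoxia changed sign only near 0. That of miR-363-3p in 22Rv1 was 0.0174 without the libraries that stood apart and −0.0991 to 0.0319 with 1 left out, and that of miR-18b-5p in 22Rv1 was −0.153 to 0.0190. In PC-3 that of miR-20b-5p was −0.0831 without both high-stromal libraries and −0.0652 to 0.111 with 1 left out, and that of miR-106a-5p −0.0690 to 0.00388. Between members in 22Rv1, leaving out 1 library gave −0.314 to −0.176 for miR-106a-5p to miR-363-3p, 0.134 to 0.328 for miR-18b-5p to miR-20b-5p, which passed the exact permutation test without replicate 1 of hypoxia at 0% (adjusted p = 0.0409), and −0.175 to 0.00351 for miR-106a-5p to miR-18b-5p. For every change with a setting the cause was not tested. DESeq2 gave 2 values no adjusted p, and they are left out. Low counts limit miR-18b-5p, miR-20b-5p and miR-363-3p in PC-3.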

Other observations

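The next miRNA cluster on the X chromosome, from miR-424 to miR-450b, ran the other way between the lines. All 8 of its tested arms were called lower in 22Rv1 in normoxia, with a median log2 fold change of −2.92, where 39.6% of all tested miRNAs were called lower by edgeR. miR-424-5p, which shares its seed family with miR-16, averaged 30.04 ± 5.49 CPM in 22Rv1 normoxia and 421 ± 34.5 CPM in PC-3 normoxia (SD). In hypoxia 0 of 7 tested arms of that cluster were called in 22Rv1 and 0 of 8 in PC-3 by edgeR, with 0 and 2 at an unadjusted p below 0.05.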
